A study of Mus musculus with 6 samples.

Results

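The genes described here are 9 EF-hand calcium-binding genes, *Calb2*, *Calb1*, *Pvalb*, *S100a1*, *Sri*, *Hpcal1*, *Ncs1*, *Calm2* and *Calm3*, of the 46983 genes listed for E13.5 mouse hearts. They were picked by name as a family around *Calb2*, with the difference between the hearts already known, so their fold changes are given as a description and carry no test. The EF hand is a helix-loop-helix fold whose loop holds a calcium ion. Some EF-hand proteins, such as calretinin, calbindin and parvalbumin, mainly bind free calcium and shape its rise and fall, whereas others, such as calmodulin and the neuronal calcium sensors, change shape on binding and then act on a target. In the heart, calmodulin, S100A1 and sorcin are known regulators of the calcium release channel that couples excitation to contraction.

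Each library came from 1 whole heart of a C57BL/6 x DBA/2 embryo at E13.5. The 3 mutant hearts (replicates 1, 5 and 10) carried TnnT2Cre;Wt1flox, in which a cardiac troponin T promoter drives Cre and both alleles of *Wt1*, a zinc finger transcription factor gene, are floxed. The 3 control hearts (replicates 2, 3 and 5) are labelled wild type, and by the study's methods were floxed embryos without Cre. The Cre is active in the cardiomyocyte lineage and in a fraction of the epicardium, so *Wt1* remains in the other cells of a mutant heart. The labels number the hearts but do not tie them to litters or days.

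Total counts ranged from 44244665 to 56373393. *Wt1* itself had 2251, 1891 and 879 reads in the wild type hearts and 921, 1746 and 1796 in the mutant hearts, so its total over the gene, which cannot show a deleted exon by itself, did not separate the labels. All 6 cardiomyocyte markers examined were detected in every heart, with *Tnnt2*, the troponin T of cardiac muscle, as the highest. Wild type replicate 3 stood apart in transcripts of other tissues. Its 6 hepatocyte genes, a list added after the values were seen, summed to 45225 reads against 13 to 984 in the other hearts, and 7 of 8 skeletal muscle markers were highest in it, among them *Pax7* with 130 reads against 0 to 5. Wild type replicate 5 stood apart by gene length: across 11795 genes, Spearman's rho between gene length and the deviation of that heart was -0.556, short genes being high in it. The other hearts had values from -0.0622 to 0.464, and the highest, in which long genes were high, was mutant replicate 5. Fold changes of the fitted members are given with and without these hearts where leaving one out moved them by over 1.5 times or changed the sign, and for *Calb2* and *Hpcal1* in any case.

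*Calb2* (chr8:110137502-110168210 on GRCm38, minus strand) encodes calretinin, a calcium buffer known from neurons and from mesothelium, the tissue layer to which the epicardium belongs. It was low in E13.5 hearts and lower in the mutants. Reads numbered 110, 113 and 60 in wild type replicates 2, 3 and 5, against 35, 22 and 16 in mutant replicates 1, 5 and 10. The groups did not overlap, and the lowest wild type heart was replicate 5. Per length, the level was 1.25 ± 0.257 FPKM (the count scaled to gene length and to the total of the heart; SD, n = 3) in wild type hearts and 0.328 ± 0.137 FPKM in mutant hearts. The log2 fold change of mutant over wild type was -1.90 with a standard error (SE) of 0.36, or 3.73-fold lower. Without wild type replicate 3 it was -1.81 (SE 0.42), and without wild type replicate 5 it was -2.05 (SE 0.38). In whole hearts, fewer cells of a type and less RNA per cell cannot be told apart.

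Markers of the cells that could carry *Calb2* moved unequally. The summed FPKM of 10 epicardial and mesothelial markers, led by the uroplakin gene *Upk3b*, ranged from 104 to 199 in wild type and from 121 to 207 in mutant hearts, so that the groups overlapped. Among wild type hearts, replicate 5 was lowest both in this sum and in *Calb2*, whereas among mutant hearts replicate 10 was highest in the sum, at 207, and lowest in *Calb2*. Single markers went both ways: of the 10, 6 had higher and 4 lower estimates. *Rspo1*, a secreted activator of Wnt signalling, had a log2 fold change of -1.75 (SE 0.24) and *Upk1b*, another uroplakin gene, one of 0.96 (SE 0.29), both without overlap between the groups and both named after their values were seen. The summed FPKM of the neuronal and neural crest list, with *Tubb3* as its highest gene, was 16.7 to 19.02 FPKM in wild type and 13.1 to 17.3 in mutant hearts. Of its 10 genes 2 had higher and 8 lower estimates, from *Ngfr*, a neurotrophin receptor gene, at -1.27 (SE 0.30) to *Prph*, which encodes peripherin, at 1.45 (SE 0.33), again named after their values were seen. Only the 6 markers of the sinus venosus and sinus node, led by the ligand gene *Bmp4*, gave sums that did not overlap among these 3 lists, with 74.4 to 82.9 FPKM in wild type and 55.0 to 67.2 in mutant hearts. Of that list 5 had lower estimates and 1 a higher one. They ran from *Shox2*, a transcription factor gene of the sinus node, at -1.02 (SE 0.12) to *Hcn4*, a pacemaker channel gene, at 0.08 (SE 0.13), both named after their values were seen, and *Bmp4* was at -0.08 (SE 0.13). The separation of the sums rested on *Shox2*, at 22.1 ± 1.44 FPKM in wild type and 10.6 ± 1.12 FPKM in mutant hearts. With *Shox2* left out of the sums, the groups overlapped. No list had its defining markers at 0 in all hearts, and the part of these cells in the level of *Calb2* was not tested.

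*Calb1* (chr4:15881264-15908064, plus strand) encodes calbindin, the closest relative of calretinin among these genes, and was near the limit of detection. It had 8, 66 and 11 reads in wild type replicates 2, 3 and 5, and 5, 3 and 0 reads in mutant replicates 1, 5 and 10. All wild type values were above all mutant values, but replicate 3 alone held most of the wild type reads. That heart is the one with the hepatocyte and skeletal muscle transcripts, whose part in its *Calb1* reads was not tested. The wild type mean was 0.513 ± 0.552 CPM (the count scaled to the effective library size; SD, n = 3), and 0.196 ± 0.0763 CPM (n = 2) without replicate 3, against 0.0511 ± 0.0484 CPM in mutant hearts. The gene had too few reads to enter the fit, which kept 8 of the 9 members, and no fold change is given for it.

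In FPKM, *Calb2* exceeded *Calb1* by a ratio of 18.1, 2.26 and 7.19 in wild type replicates 2, 3 and 5. Mutant replicates 1 and 5 gave ratios of 9.23 and 9.67, and the ratio could not be formed in replicate 10, which had no *Calb1* read. The mutant ratios lay inside the wild type range. With the joined exon lengths of GENCODE M21, tried after the data were seen, the wild type ratios were 38.2, 4.76 and 15.2 and those of mutant replicates 1 and 5 were 19.5 and 20.4.

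*Pvalb* (chr15:78191114-78206400, minus strand) encodes parvalbumin, a buffer of fast muscle fibres and of some neurons. Reads were 59, 50 and 85 in wild type replicates 2, 3 and 5, and 40, 18 and 51 in mutant replicates 1, 5 and 10. Mutant replicate 10 was above wild type replicate 3 in reads, and in CPM the groups overlapped as well. The levels were 1.34 ± 0.573 FPKM in wild type and 0.721 ± 0.328 FPKM in mutant hearts, with a log2 fold change of -0.85 (SE 0.47). The size of this difference depended on single hearts. It was -0.44 (SE 0.47) without wild type replicate 5, -1.06 (SE 0.50) without wild type replicate 3 and -0.53 (SE 0.45) without mutant replicate 5, and reached -1.19 (SE 0.53) without mutant replicate 10. Wild type replicate 3, where skeletal muscle markers such as *Pax7* were highest, had the fewest *Pvalb* reads of the wild type hearts. The part of that tissue in the *Pvalb* reads was not tested.

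**Figure D1:**
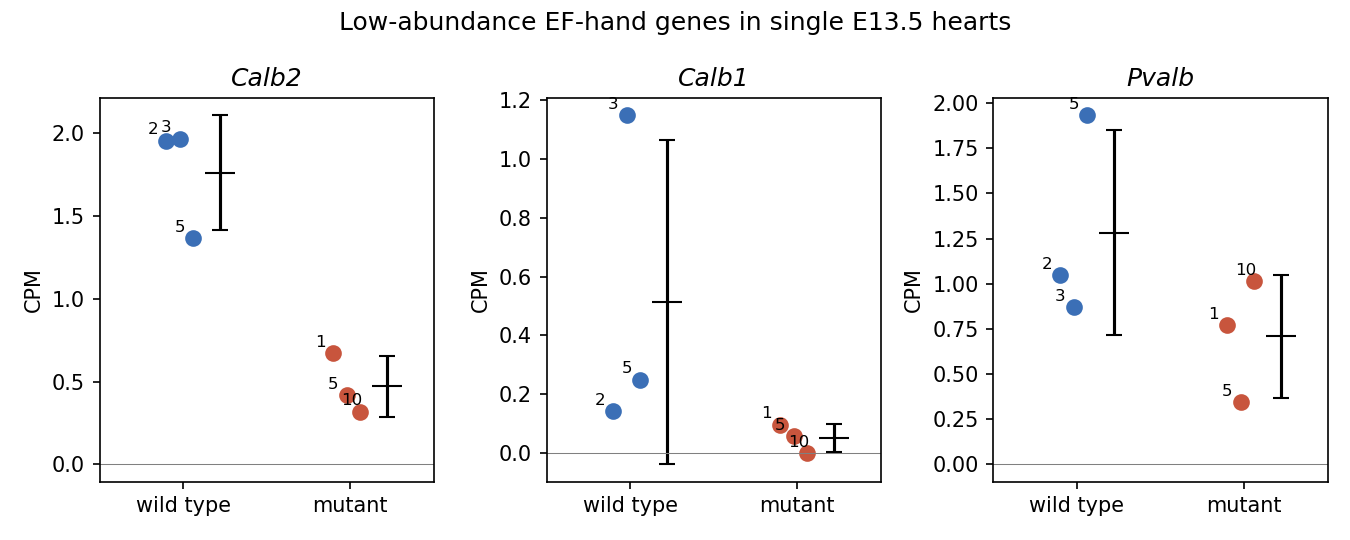
Read counts scaled to library size (CPM, vertical axes) of *Calb2*, *Calb1* and *Pvalb* in single hearts of each group; each point is 1 heart with its replicate number, and bars give the mean and SD (n = 3). *Calb2* and *Calb1* do not overlap between the groups, *Calb1* is high in wild type replicate 3 alone, and *Pvalb* overlaps.

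*S100a1* (chr3:90511034-90514392, minus strand) encodes a small dimeric EF-hand protein of cardiac and skeletal muscle that binds the ryanodine receptor and the sarcoplasmic calcium pump. It had 4262, 4050 and 6939 reads in wild type replicates 2, 3 and 5 and 5374, 4479 and 5225 in mutant replicates 1, 5 and 10. All 3 mutant hearts lay between the lower pair of wild type hearts and replicate 5, which was far above every other heart. In FPKM the groups were 162 ± 76.1 and 154 ± 15.7, with a log2 fold change of -0.05 (SE 0.29). Leaving out wild type replicate 5 turned the sign, to 0.42 (SE 0.10). Without wild type replicate 3 it was -0.25 (SE 0.28) and without mutant replicate 5 it was 0.02 (SE 0.34), and the sign changed in 6 of 15 alternative fits.

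The length of *S100a1* is 627 bases, the shortest of the 9 genes, and short genes were high in wild type replicate 5. On the log2(CPM + 0.5) scale, *S100a1* in that heart exceeded the mean of the other wild type hearts by 1.11. The median of 502 genes within 20% of its length was 0.45, so the gene stood above the genes of like length. With a correction of each heart for its trend with length, the log2 fold change of *S100a1* was 0.08 (SE 0.17). The same measure was 0.74 for *Pvalb*, against a median of 0.23 over 1696 genes of like length, and -0.40 for *Calb2*, against 0.06 over 2739 genes. These medians took only genes above a cut on the mean level, which *Calb2* and *Pvalb* did not reach, so genes of like count were not compared. *Calb2* was thus low in replicate 5 where better counted genes of its length were slightly high. Its log2 fold change with the length correction was -1.91 (SE 0.37).

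**Figure D2:**
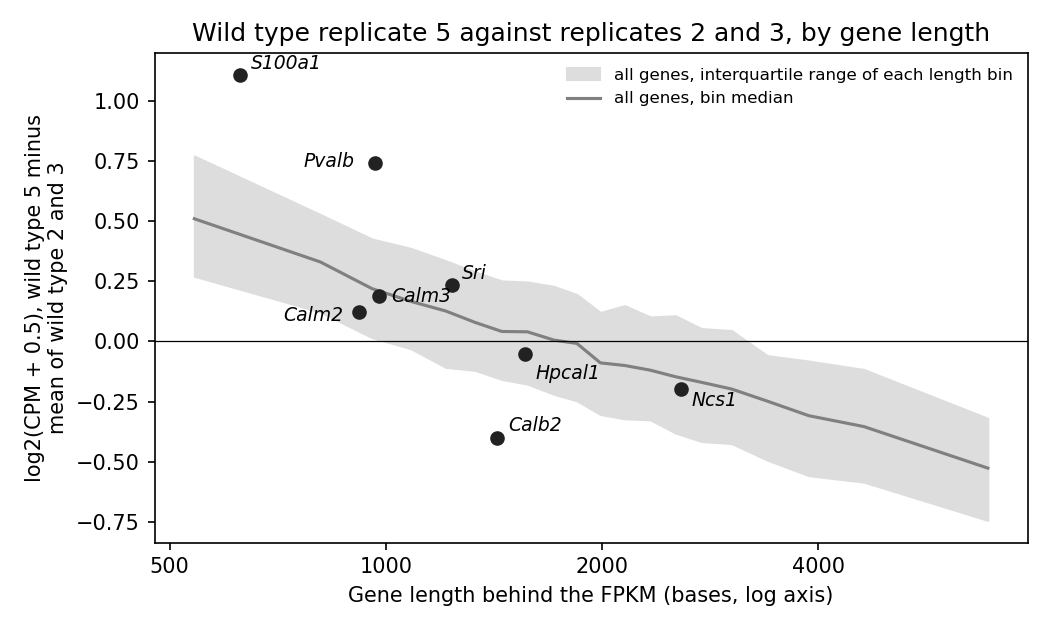
Difference of wild type replicate 5 from the mean of wild type replicates 2 and 3 in log2(CPM + 0.5) (vertical axis) against gene length in bases (log axis). The line and band give the median and interquartile range in bins of length, from all genes whose mean log2(CPM + 0.5) was over 2. Black points are the members, without *Calb1*, and of these *Calb2* and *Pvalb* were under that cut. *S100a1* at 1.11 and *Pvalb* at 0.74 lie above the band, and *Calb2* at -0.40 lies below it.

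*Sri* (chr5:8046078-8069379, plus strand) encodes sorcin, a penta-EF-hand protein that moves to membranes on binding calcium and acts on the ryanodine receptor. Its 4914, 4975 and 4496 reads in wild type replicates 2, 3 and 5 and 5089, 5007 and 4613 reads in mutant replicates 1, 5 and 10 were among the most even of the members. The levels were 75.1 ± 6.19 FPKM and 76.2 ± 5.33 FPKM, and the log2 fold change was 0.05 (SE 0.10). The groups overlapped. Over 15 alternatives the estimate lay between 0.01, with wild type replicate 3 left out, and 0.13, with replicate 5 of that group left out.

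*Hpcal1* (chr12:17690856-17791933, plus strand) encodes hippocalcin-like 1, a myristoylated neuronal calcium sensor. It was higher in the mutants. Wild type replicates 2, 3 and 5 had 1015, 1113 and 792 reads, or 18.0, 19.4 and 18.0 CPM, and mutant replicates 1, 5 and 10 had 1137, 1328 and 1294 reads, or 21.9, 25.3 and 25.7 CPM. Every mutant heart was above every wild type heart. Levels were 11.9 ± 0.623 FPKM in wild type and 15.4 ± 1.03 FPKM in mutant hearts, with a log2 fold change of 0.40 (SE 0.11), or 1.32-fold higher. The value was 0.44 (SE 0.14) without wild type replicate 3 and 0.38 (SE 0.11) without wild type replicate 5.

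*Ncs1* (chr2:31245823-31295989, plus strand) encodes neuronal calcium sensor 1, which binds a phosphatidylinositol kinase and potassium channels of the Kv4 family. It had 6192, 5815 and 4039 reads in wild type replicates 2, 3 and 5 and 5506, 5844 and 5817 in mutant replicates 1, 5 and 10. The wild type hearts spread more than the mutant hearts, with 39.6 ± 3.95 FPKM against 42.6 ± 0.80 FPKM. The log2 fold change was 0.14 (SE 0.10) and the groups overlapped. It was 0.07 (SE 0.08) without wild type replicate 5, the lowest heart, and 0.21 (SE 0.12) without wild type replicate 2.

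*Calm2* (chr17:87433412-87446935, minus strand) and *Calm3* (chr7:16915379-16924114, minus strand) encode the same protein, calmodulin, the general calcium sensor that regulates kinases, phosphatases and channels. Both coding sequences have 447 bases in 149 codons, but they differ in synonymous bases. They are shown because, within the coding part, uniquely mapped reads can be assigned to 1 of these genes only at bases that differ. The first 120 coding bases of each, joined from the exons of GENCODE M21 on GRCm38 and written 5′ to 3′, differ at 18 positions, marked by capitals:
Calm2: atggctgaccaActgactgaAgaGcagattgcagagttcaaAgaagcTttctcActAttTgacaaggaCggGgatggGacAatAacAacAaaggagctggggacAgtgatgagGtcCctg
Calm3: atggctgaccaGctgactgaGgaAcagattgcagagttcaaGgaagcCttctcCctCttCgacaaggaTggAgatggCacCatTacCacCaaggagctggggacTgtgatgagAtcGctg
Over the whole coding sequence, *Calm2* and *Calm3* had 82.6% identical bases, and the longest run they shared was 17 bases. By comparison, *Calb1* and *Calb2* had 63.6% identical bases when aligned, and *Hpcal1* and *Ncs1* 65.6%. None of the 9 members shared exon bases with another annotated gene.

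*Calm2* had 24227, 25513 and 20902 reads in wild type replicates 2, 3 and 5 and 24163, 21342 and 20958 in mutant replicates 1, 5 and 10. Its levels were 495 ± 19.7 and 464 ± 45.7 FPKM, with a log2 fold change of -0.07 (SE 0.11). This was -0.02 (SE 0.09) without wild type replicate 5, -0.13 (SE 0.13) without mutant replicate 1, and -0.04 without either of the other mutant hearts. *Calm3* had 25596, 25354 and 22456 reads in the wild type hearts and 23139, 23890 and 24504 in the mutant hearts in the same order, which gave 483 ± 31.3 and 468 ± 4.18 FPKM and a log2 fold change of -0.02 (SE 0.11). Both genes overlapped between the groups. The sign for *Calm3* changed in 3 of 15 alternatives, among them the fit without wild type replicate 5, at 0.05 (SE 0.08), and with wild type replicate 3 left out the estimate was -0.06 (SE 0.15).

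The order of the 9 levels per length in wild type hearts was *Calm2*, *Calm3*, *S100a1*, *Sri*, *Ncs1*, *Hpcal1*, *Pvalb*, *Calb2* and *Calb1*. At the lengths behind the FPKM, *Calm2* and *Calm3* did not differ beyond their spread, nor did *Pvalb* and *Calb2*. The ranges of all other neighbours were apart. In mutant hearts the order was the same except that *Calm3* came before *Calm2*, again with overlapping ranges. The sensors and S100 proteins thus stood at 11.9 FPKM or more in wild type hearts and the 3 buffers at 1.34 FPKM or less. The wild type spread differed widely among the members, from a coefficient of variation of 3.97% for *Calm2* to 46.9% for *S100a1* and 108% for *Calb1*. Levels per length depend on the length used. With the joined exons of GENCODE M21, which make *Sri* 4852 bases long in place of the 1235 bases behind the FPKM, *Ncs1* came before *Sri* in both groups, at 21.9 ± 2.19 against 19.1 ± 1.57 FPKM in wild type hearts, where their ranges overlapped. With the joined exons *Calm2* also stood above *Calm3* with ranges that did not overlap in either group. The levels were 309 ± 12.3 against 195 ± 12.6 FPKM in wild type hearts and 290 ± 28.6 against 189 ± 1.69 FPKM in mutant hearts. Whether these 2 genes tie thus depends on the length. This length was tried after the data were seen.

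**Figure D3:**
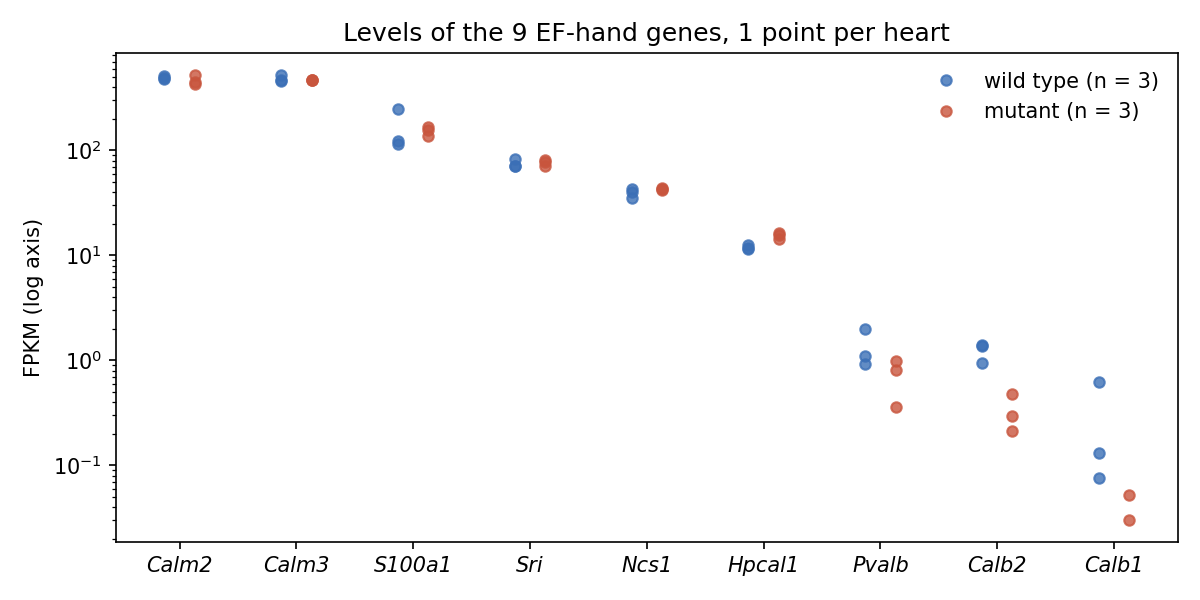
Levels of the 9 genes in FPKM (vertical log axis), 1 point per heart, for wild type (blue) and mutant (red) hearts, in the order of the wild type means; mutant replicate 10 had no *Calb1* read and has no point there. The calmodulin genes stand near 480 FPKM and the 3 buffers at or below 2 FPKM.

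Across the 17473 genes tested, 0 (0%) passed edgeR's threshold of an adjusted p under 0.05, while 1002 (5.73%) were under 0.05 before adjustment. DESeq2 called 133 of the 19282 genes to which it gave an adjusted p (0.69%). Of the 8 members tested, 3 had higher and 5 lower estimates in the mutants, and their median log2 fold change was -0.04. None of them passed the edgeR threshold, 2 had an unadjusted p under 0.05, *Calb2* and *Hpcal1*, and *Calb2* was called by DESeq2. Among the tested members, 1 was higher without overlap, as were 6.61% of all genes, and 1 lower, as were 4.59%. Since the members were chosen with this contrast known, nothing is read from these counts.

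A list of 64 other EF-hand genes was set beside the members, and 47 of them entered the fit. In the mutants, 27 had higher and 20 lower estimates, with a median log2 fold change of 0.02. With edgeR 0 passed the threshold, and 3 had an unadjusted p under 0.05, against 5.73% of all genes. DESeq2 called 1, *Vsnl1*, against 0.69% of all genes. Without overlap, 2 were higher and 3 lower in mutant hearts, against 6.61% and 4.59% of all genes.

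*Vsnl1*, which encodes visinin-like 1, a neuronal calcium sensor related to hippocalcin, had both the highest level and the smallest p among the neuronal calcium sensors of that list. It had 2137, 2399 and 2475 reads in wild type replicates 2, 3 and 5 and 1203, 1020 and 1288 in mutant replicates 1, 5 and 10. The log2 fold change was -0.99 (SE 0.17), with an adjusted p of 0.199 in edgeR's test. Without wild type replicate 5 it was -0.81 (SE 0.12), with an adjusted p of 0.0423. This gene was among those the study itself listed from these hearts, so its direction here is no independent evidence. *Vsnl1* and *Hpcal1* had 72.2% identical coding bases, and their estimates had opposite signs. Of the 11 neuronal calcium sensors tested apart from the members, 2 had higher and 9 lower estimates, with a median of -0.28. Only *Vsnl1* among them had groups that did not overlap. The median is the estimate of *Cabp1* (SE 0.39), a gene with 34 to 69 reads per heart, named after its values were seen.

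The 3 tested relatives of the buffers, all of the NECAB group, had lower estimates, with a median of -0.66. *Necab2*, the highest of them and the one with the smallest p, had 103, 130 and 83 reads in wild type and 64, 58 and 59 in mutant hearts, a log2 fold change of -0.77 (SE 0.24) and an adjusted p of 0.667 in edgeR's test. Its groups did not overlap. The median is the estimate of *Necab1* (SE 0.50), named after its values were seen. That gene had 17, 52 and 17 reads in wild type replicates 2, 3 and 5 and 21, 17 and 14 in mutant hearts, and the groups overlapped. The high value is that of wild type replicate 3, the heart with the hepatocyte and skeletal muscle transcripts.

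Among 8 further S100 genes tested, 3 had higher and 5 lower estimates, with a median of -0.06. *S100a11* was the highest in wild type hearts at 235 ± 11.9 FPKM against 218 ± 5.72 FPKM in mutants. *S100a8*, a gene of neutrophils and other myeloid cells, had the smallest p of its list but an adjusted p of 0.879 in edgeR's test. It had 8, 21 and 68 reads in wild type and 121, 146 and 65 in mutant hearts, and the groups overlapped through wild type replicate 5. The log2 fold change was 1.67 (SE 0.73) with all hearts. Without wild type replicate 5 it was 3.06 (SE 0.52), with an adjusted p of 0.0765 in edgeR's test, still above the threshold. The 6 penta-EF-hand genes tested apart from *Sri* had small positive estimates with a median of 0.08, among them *Capns1*, the small calpain subunit, at 224 ± 14.7 and 230 ± 4.41 FPKM, and *Gca*, grancalcin, at 9.36 ± 0.546 and 9.76 ± 0.247 FPKM.

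All 7 EF-hand genes of the secretory pathway had positive estimates with a median of 0.06. *Calu*, calumenin, was at 524 ± 20.9 FPKM in wild type and 588 ± 35.2 FPKM in mutant hearts, which did not overlap, with an adjusted p of 0.943 in edgeR's test. Of 10 other cytosolic sensors, *Tnnc1*, the calcium-binding subunit of cardiac troponin, was the most abundant at 1772 ± 263 and 1738 ± 179 FPKM. *Chp1*, calcineurin-like EF-hand protein 1, had a log2 fold change of 0.32 (SE 0.12), groups that did not overlap and an adjusted p of 0.814 in edgeR's test.

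**Figure D4:**
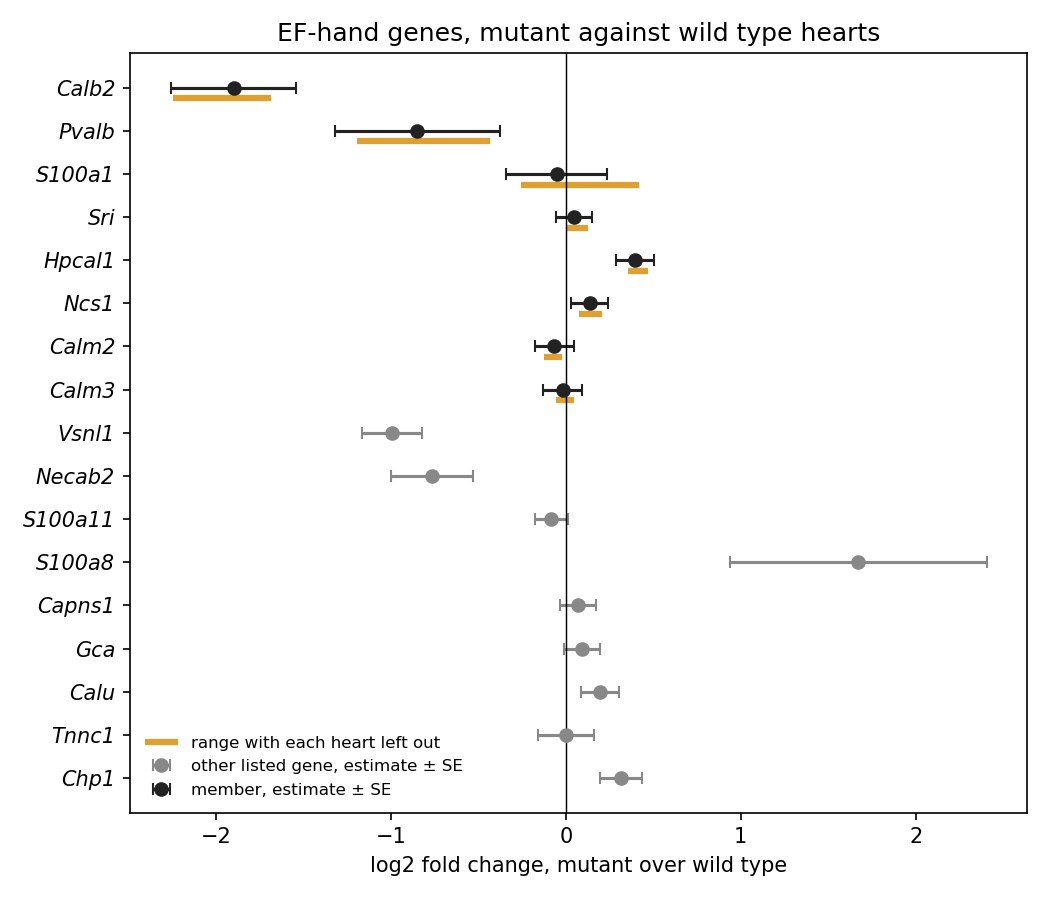
Log2 fold change of mutant over wild type hearts (horizontal axis) with its SE for the 8 members that entered the fit (black) and for other EF-hand genes named in the text (grey); orange bars under the members span the values with each heart left out in turn. *Calb2* at -1.90 is lowest, *Hpcal1* at 0.40 is the highest member, and the bar of *S100a1* crosses 0.

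The genes that these proteins act on were examined as a list of 43 partners and effectors, of which 41 entered the fit. With edgeR 0 passed the threshold, and DESeq2 called 0. An unadjusted p under 0.05 was found for 5, against 5.73% of all genes, and 4 were higher and 4 lower without overlap, against 6.61% and 4.59% of all genes. The estimates were higher for 27 and lower for 14, with a median log2 fold change of 0.07. Targets of the muscle EF-hand proteins were *Ryr2*, the ryanodine receptor, at 0.16 (SE 0.27), *Cacna1c*, the pore of the L-type calcium channel, at 0.22 (SE 0.16), and *Atp2a2*, the sarcoplasmic calcium pump, at -0.04 (SE 0.20). Without wild type replicate 5 the estimates were -0.12 (SE 0.09) for *Ryr2*, 0.05 (SE 0.08) for *Cacna1c* and -0.23 (SE 0.11) for *Atp2a2*. Among the 13 tested targets of sorcin, S100A1 and NCS-1, *Pln*, which encodes phospholamban, the inhibitor of that pump, had the smallest p. It had 39897, 48905 and 42083 reads in wild type and 52438, 58883 and 62200 in mutant hearts, with a log2 fold change of 0.42 (SE 0.15) and an adjusted p of 0.765 in edgeR's test. *Atp5a1*, a mitochondrial ATP synthase subunit and target of S100A1, was the highest of these targets at 1407 ± 68.8 and 1497 ± 84.6 FPKM. Among the 28 calmodulin-regulated enzymes and binders tested, *Mylk3*, the cardiac myosin light chain kinase, was the highest at 146 ± 20 and 151 ± 7.94 FPKM, and *Camkk1*, a kinase that activates other calmodulin-dependent kinases, had a log2 fold change of -0.63 (SE 0.19) and an adjusted p of 0.646 in edgeR's test.

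The genes whose pattern over the 6 hearts was most like that of *Calb2* were sought among 14093 genes by the root mean square difference of log2 CPM, each gene centred on its mean. They were *Ntf5*, a neurotrophin gene, at 0.33, *Kcne1l*, a potassium channel subunit gene, at 0.35, and *D630003M21Rik* at 0.39. *Ntf5* had 385, 311 and 239 reads in wild type replicates 2, 3 and 5 and 125, 135 and 77 in mutant replicates 1, 5 and 10. *Kcne1l* had 1184, 976 and 543 reads in the wild type and 224, 227 and 244 in the mutant hearts. In reads of both, as in *Calb2*, the lowest wild type heart was replicate 5 and no mutant heart reached it. Wild type replicate 5 also had the smallest total count of all hearts, 44244665, and reads are not scaled to that total. In CPM, replicate 5 stayed the lowest wild type heart for *Calb2* and *Kcne1l*. For *Ntf5*, wild type replicates 3 and 5 were nearly equal in CPM, with replicate 3 slightly lower. The study itself reported *Kcne1l* as lower in the mutants from these hearts, so its place here is no independent evidence. This likeness is a description over 6 libraries that share the group difference.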

How the data were processed

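RNA from 6 whole hearts was sequenced as paired reads. By the study's methods, the authors aligned the reads to the mouse genome, counted uniquely mapped reads per gene with featureCounts, and deposited raw counts. The submitters' processing notes name HTSeq and DESeq2 instead, and neither gives the strand setting. The authors also deposited FPKM values, which equal the count divided by the heart's total and by 1 fixed length per gene. The counts were fitted with edgeR 4.0.16 (R 4.3.3, TMM, filterByExpr with a count minimum of 10, quasi-likelihood test, two-sided, Benjamini-Hochberg adjusted p under 0.05 over all 17473 genes), after a check on simulated counts. Alternatives used DESeq2 1.42.0, limma 3.58.1 (log2 of FPKM plus 1 or 0.1), other scaling and filters, a length correction (local regression, span 0.5), and each heart left out. Nothing states whether hearts shared litters, so p-values measure only the spread between these hearts.

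Members and lists were chosen with earlier results of these data known. Named genes were the members, *Wt1*, of each list the gene with the highest FPKM and that with the smallest p, *Ryr2*, *Cacna1c*, *Atp2a2*, the top gene of each marker list, and the 3 genes most like *Calb2*. The skeletal muscle list was led by *Acta1*. Sequences and positions are from GENCODE M21 (GRCm38). Protein sequences were not used here. A gene that the rule for named genes also covers, and the shares that need it, are not reported here. The group means that the authors deposited were not used.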

Additional observations from a re-analysis of the deposited data

How the results depend on the processing

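Over all genes, edgeR called 0 with either of the other scalings, and limma called 0, but DESeq2 called 133, the fit without a filter on low counts 34 and the fit with a length correction 6. Leaving out each heart gave 0 to 44 genes, and wild type replicate 5 was the heart whose removal gave 44. Of the other EF-hand genes, DESeq2 and the fit without a filter each called 1, *Vsnl1*, and leaving out each heart gave 0 to 2, the 2 being *Vsnl1* and *S100a9* without wild type replicate 5. The cause was not tested. No partner gene was called in any of the alternatives run. Of 119 alternative fold changes for the 8 fitted members, 117 moved by less than the spread between hearts, and the exceptions were *Calb2* at -0.76 on the log2(FPKM + 1) scale, which compresses low genes, and *S100a1* at 0.42 without wild type replicate 5. With joined exon lengths, chosen after seeing the data, *Ncs1* came before *Sri* in both groups. *Calm2* then came before *Calm3* in both groups, with ranges that did not overlap. By CPM, *Ncs1* came before *Sri* in both groups and before *S100a1* in mutant hearts, and the order within each pair *Calm2* and *Calm3*, *Calb2* and *Pvalb*, turned in wild type hearts. The depth limits *Calb1* most, with 0 to 66 reads per heart. No paired analysis was possible because the labels do not tie hearts to litters, and the replicate number 5 found in both groups is no pairing.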

Other observations

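Of the EF-hand and partner genes listed, 7 were listed at 0 reads in every heart: *Calm4*, *Rcvrn*, *S100a4*, *S100a5*, *S100z*, *Tnnc2* and *Pcp4*. By the GENCODE M21 annotation, the exons of 3 of them overlapped other genes, and those of the other 4 did not. *S100a4*, a gene of mesenchymal and myeloid cells, shared 51.7% of its exon bases with a gene on the same strand, *Tnnc2*, the fast skeletal troponin C, shared 74% with *Ube2c* on the opposite strand, and *Pcp4*, a calmodulin-binding protein gene, shared 23.7% with *Igsf5* on the same strand. For the 3 genes with overlap, a listing at 0 is no evidence that the transcripts were absent from the hearts. For *Calm4*, *Rcvrn*, *S100a5* and *S100z* it shows that no read was counted in any heart, and absence was not tested. In wild type replicate 3, *Myod1* had 325 reads against 5 to 31 in the other hearts, *Myog* 1169 against 41 to 149, *Alb* 17429 against 0 to 289 and *Afp* 20620 against 2 to 772.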
